A study of Mus musculus with 6 samples.

Results

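The genes described here carry vitamin A (retinol) in the blood, store it in the liver, turn it into retinoic acid and respond to that acid. They are the 9 rows of the deposited read-count table whose symbol is Rbp4, Ttr, Lrat, Rdh16, Dhrs3, Aldh1a1, Aldh1a2, Cyp26a1 or Rarb, of 29667 genes in all. Poly(A)-selected liver mRNA of 3 wild-type (WT) and 3 Prox1-cKO mice was sequenced, and the 2 genotypes were compared. Both groups carry floxed Prox1 (Prox1 f/f), and the Prox1-cKO mice carry in addition Cre recombinase under the albumin promoter (Alb-Cre; Prox1 f/f), which is active in hepatocytes. All strains of the study have a C57BL/6 background. For these mice, the sources used here give neither age nor sex, treatment or hour of sampling. The study also describes liver cancer models induced with the carcinogen DEN in mice of both genotypes, and its text does not say whether these livers come from them.

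Dietary retinol is kept in the liver as retinyl esters, mostly in the lipid droplets of hepatic stellate cells, where the enzyme LRAT makes them. Hepatocytes release retinol into the blood bound to retinol-binding protein (RBP4), which travels in a complex with transthyretin (TTR). Inside cells, retinol is oxidized reversibly to retinal and retinal irreversibly to retinoic acid, which binds the receptors RAR and RXR on DNA and is removed by the CYP26 hydroxylases. Cyp26a1, Rarb, Dhrs3 and Lrat are known as genes that retinoic acid induces.

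The libraries held 18066205 to 20537091 reads in genes. Levels are given as TMM-normalized CPM, that is, the reads of a gene per 1000000 reads of a library total that TMM, a scaling by the bulk of the genes, has adjusted. Differences between the genotypes were tested with edgeR's quasi-likelihood method over the 14843 genes that passed its filter on low counts, and a gene was called higher or lower at a Benjamini-Hochberg adjusted p under 0.05. By this rule 14.1% of all genes tested were higher and 20.2% lower in Prox1-cKO, and with library totals alone these shares were 4.92% and 40.8%. That scaling moved the median log2 fold change of all genes from −0.02 to −0.42. The deleted gene itself, Prox1, stood at 558, 728 and 836 CPM in WT against 211, 179 and 172 CPM in Prox1-cKO, and its log2 fold change was −1.91 (SE, standard error, 0.20, edgeR adjusted p = 6.05e-04). WT replicate 3 stood apart from the other WT livers in its macrophage markers, whose summed level was 533 CPM against 1350 and 1310. Without that liver the log2 fold changes of Rbp4, Rdh16 and Dhrs3, described next, were 2.02, 2.72 and −0.37, and of these members only Dhrs3 lost its call.

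In the Prox1-cKO livers the plasma carriers of retinol and 1 retinol dehydrogenase were higher, and the members known to be induced by retinoic acid were lower. Rbp4, Ttr and Rdh16 rose by 2.51-fold to 4.99-fold. Lrat, Dhrs3, Rarb and Cyp26a1 fell, from 1.51-fold for Dhrs3 to 16.1-fold for Cyp26a1. Aldh1a1 was not called, and Aldh1a2, with 1 read in each Prox1-cKO library, did not pass the filter. In all, 3 of the 8 members tested were higher, 4 were lower and 1 was not called, against a background of 14.1% higher and 20.2% lower (34.3% in either direction). The genotypes did not overlap in any of these 8, against 49.9% of all genes tested, so that separation by itself was common in this comparison.

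The stretches before a transcript start of Cyp26a1 and of Rarb are shown here because both hold the same kind of repeat and both genes fell. RAR and RXR bind DNA as a pair at repeats of a short half-site, and a direct repeat of that half-site with 5 bases between its copies (DR5) is the classic response element of retinoic acid. The sequences are the 250 bases before the transcript start that the RefSeq promoter table lists for each gene on the mouse build GRCm38.p6, read 5′ to 3′ along the gene's strand. For Rarb this start lies inside the gene as GENCODE M21 bounds it, downstream of its outermost start, and for Cyp26a1 it lies a few bases after the GENCODE start. Capitals mark the copies of the half-site in the DR5.
Cyp26a1, chr19:37697558-37697807, plus strand: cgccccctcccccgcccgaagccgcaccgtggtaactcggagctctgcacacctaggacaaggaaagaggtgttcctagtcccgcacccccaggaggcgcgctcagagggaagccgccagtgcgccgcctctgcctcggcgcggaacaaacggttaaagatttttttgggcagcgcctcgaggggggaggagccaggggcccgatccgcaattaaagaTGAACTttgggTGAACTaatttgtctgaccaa
Rarb, chr14:16575477-16575726, minus strand: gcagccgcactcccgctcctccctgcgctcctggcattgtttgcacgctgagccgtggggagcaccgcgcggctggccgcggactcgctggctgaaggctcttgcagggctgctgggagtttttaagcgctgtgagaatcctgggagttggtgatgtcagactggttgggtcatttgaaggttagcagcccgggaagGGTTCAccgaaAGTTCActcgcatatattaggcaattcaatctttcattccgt

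The half-site was searched for as AGGTCA and with changed letters as AGTTCA, as well as GGGTCA, and finally GGTTCA, on both strands. Direct repeats of any of these with 1, 2 or 5 bases between the copies were kept. In Cyp26a1 the DR5 lay 32 to 16 bases before the listed start and read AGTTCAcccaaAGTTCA on the opposite strand (chr19:37697776-37697792). In Rarb it lay 53 to 37 bases before the listed internal start and read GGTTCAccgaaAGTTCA on the gene's strand (chr14:16575513-16575529). A DR5 of these letters was found in 29 of 32851 windows of the same length over all genes, or 0.0883%. Repeats with 1 and 2 bases between the copies were found in 0.164% and 0.174% of the windows, and a single half-site in 38.6%. Of the 9 members, 8 were matched in the promoter table, with 12 windows, and Ttr was not. The members matched other than Cyp26a1 and Rarb had none of these spaced repeats in their windows. Over the wider list of retinoid genes described further on, 47 genes were matched with 65 windows, which held 0 DR5 and 1 repeat with a single base between the copies, in Bco1. Cyp26a1 and Rarb are members as known targets of retinoic acid, so finding a DR5 in them was not a test. A match is a description of the letters in these windows and says nothing of binding in these livers. Its part in the falls of the 2 genes was not tested.

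**Figure D1:**
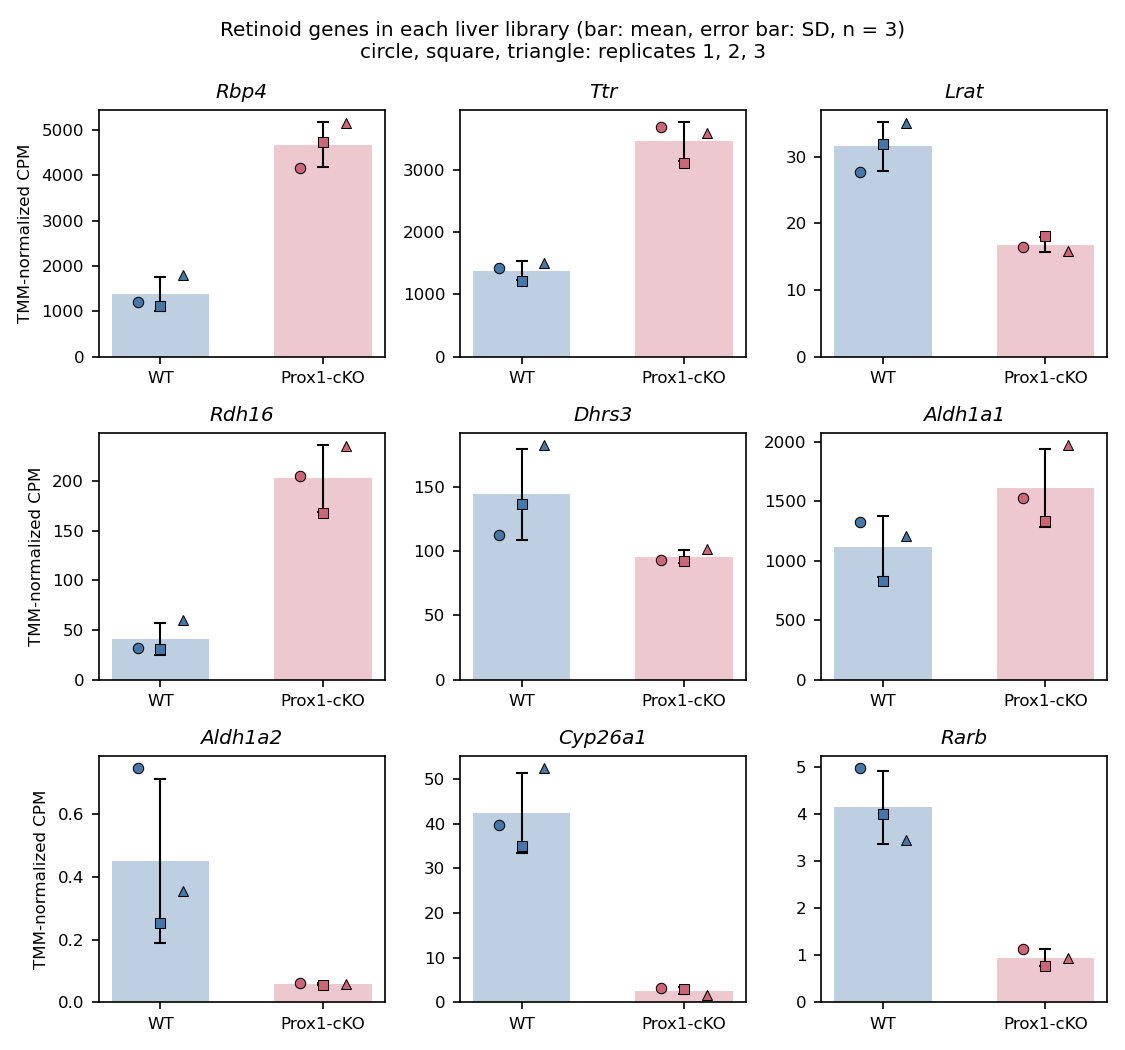
TMM-normalized CPM (linear axis from 0) of the 9 members in the 3 WT and 3 Prox1-cKO livers. Bars are means, error bars SDs (n = 3), and circles, squares and triangles are replicates 1, 2 and 3. In every panel the lowest library of the higher genotype lies above the highest of the other, by the smallest relative margin for Aldh1a1 (1323 against 1336 CPM).

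Rbp4, which encodes the plasma carrier that hepatocytes secrete with retinol (ENSMUSG00000024990, chromosome 19, 38116629 to 38125281, GRCm38, annotation GENCODE M21), was 1209, 1119 and 1808 CPM in WT. In Prox1-cKO it was 4160, 4726 and 5151 CPM. The lowest Prox1-cKO library thus lay well above WT replicate 3, the highest of the WT livers. The means were 1379 ± 374 and 4679 ± 497 CPM (SD, n = 3), a log2 fold change of 1.76 (SE 0.25, edgeR adjusted p = 0.00212). Ttr, whose product binds RBP4 and keeps it from being lost through the kidney (ENSMUSG00000061808, chromosome 18, 20665280 to 20674321), was 1421, 1219 and 1510 CPM in WT and 3691, 3110 and 3592 CPM in Prox1-cKO. Both carriers were therefore higher in each Prox1-cKO liver than in any WT liver. For Ttr the log2 fold change was 1.32 (SE 0.20, edgeR adjusted p = 0.0024).

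The carriers were among the abundant mRNAs of these livers, and their ratio to each other did not separate the genotypes. Per kb of exon, Rbp4 was 0.752, 0.811 and 1.06 times Ttr in WT and 0.996, 1.34 and 1.27 times Ttr in Prox1-cKO. These ratios overlapped between the genotypes (two-sided exact permutation test, p = 0.2). This was 1 of 17 ratios and summed levels tested in this way, and its p adjusted over them was 0.243. With 3 livers against 3 the test cannot give a p below 0.1, or 0.142 after adjustment.

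Hepatocyte markers moved with the carriers. Of 14 hepatocyte markers tested, 9 were higher and 1 was lower in Prox1-cKO, against 14.1% and 20.2% of all genes tested. Their median log2 fold change was 0.81, against −0.02 over all genes. Their summed level was 83700 to 97500 CPM in WT and 137000 to 167000 CPM in Prox1-cKO, and none of them was at 0 in any library. In these bulk samples, more or fewer cells of a type and more or less RNA per cell cannot be told apart. Rbp4 was 1.24, 1.26 and 2.16 reads per 100 reads of the hepatocyte markers in WT and 2.49, 3.36 and 3.77 in Prox1-cKO, so the genotypes remained apart on this scale (exact permutation p = 0.1, the smallest possible). Ttr was 1.46, 1.37 and 1.80 in WT and 2.21, 2.21 and 2.63 in Prox1-cKO on the same scale (exact permutation p = 0.1). This scale is mostly set by Alb, which was not called (log2 fold change 0.50). Alb had a mean of 57532 of 90000 CPM of the sum in WT and 81401 of 148000 CPM in Prox1-cKO. Single markers ran from −0.56 to 2.25 in log2 fold change, so some rose more than the carriers and others less.

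Lrat, which encodes the enzyme that esterifies retinol for storage (ENSMUSG00000028003, chromosome 3, 82892579 to 82903973), was 27.7, 31.9 and 35.1 CPM in WT and 16.4, 18.1 and 15.9 CPM in Prox1-cKO. The Prox1-cKO livers lay close together, at similar levels below every WT liver. This gave a log2 fold change of −0.91 (SE 0.13, edgeR adjusted p = 0.00215). Lrat marks hepatic stellate cells in the liver, so their other markers are given beside it. Of 15 markers of quiescent stellate cells tested, 1 was higher (Vipr1) and 2 were lower (Pdgfrb and Ngfr), against 14.1% and 20.2% of all genes. The median log2 fold change of these markers was −0.05. Their summed level was 508 to 739 CPM in WT and 623 to 709 CPM in Prox1-cKO, which overlapped (exact permutation p = 0.6), and none of them was at 0 in any library.

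Lrat therefore fell against markers whose sum overlapped between the genotypes. Lrat was 5.46, 5.14 and 4.75 reads per 100 reads of the quiescent markers in WT and 2.63, 2.55 and 2.37 in Prox1-cKO (exact permutation p = 0.1). This scale is mostly set by Dcn and Ecm1, with means of 210 and 121 of 623 CPM in WT. In Prox1-cKO their means were 214 and 163 of 668 CPM. Pdgfrb and Ngfr weighed little in the sum, at 20.1 and 8.36 CPM in WT. Their log2 fold changes were −1.09 and −1.67, and that of Vipr1 was 0.82. Whether the fall was particular to Lrat within stellate cells was not tested. Markers of activated stellate cells, by contrast with the quiescent ones, were lower: 6 of the 8 tested fell, against 20.2% of all genes, and none rose. Their summed level was 232 to 276 CPM in WT and 44.1 to 55.2 CPM in Prox1-cKO. Of these markers only Tagln and Timp1 were at 0 in any library, in 1 Prox1-cKO liver each. The part of this difference in the fall of Lrat was not tested.

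**Figure D2:**
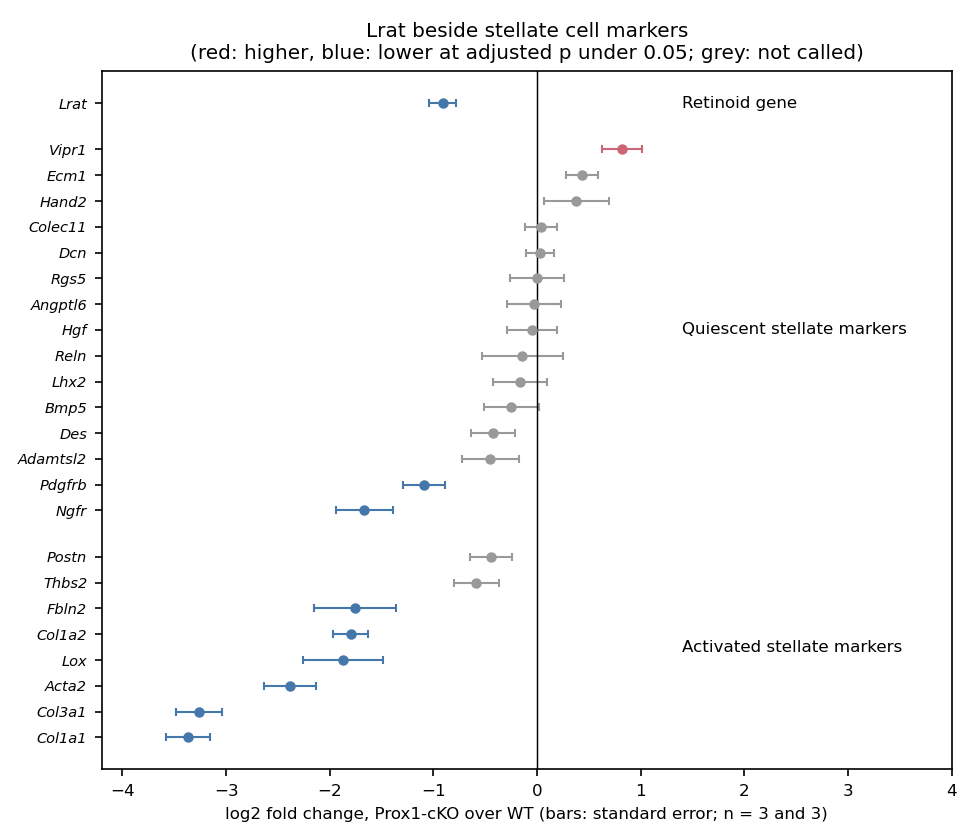
Log2 fold change, Prox1-cKO over WT, of Lrat and of the markers of quiescent and activated stellate cells that were tested (points, with standard errors as bars, n = 3 and 3). Red and blue mark genes called higher and lower and grey those not called. Most quiescent markers lie near 0 (median −0.05), whereas Lrat lies at −0.91 and the activated markers at a median of −1.84.

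Rdh16, which encodes a microsomal dehydrogenase that oxidizes retinol to retinal (ENSMUSG00000069456, chromosome 10, 127801152 to 127846565), had the largest rise of the members. It was 32.02, 30.3 and 59.5 CPM in WT and 205, 167 and 235 CPM in Prox1-cKO. WT replicate 3 was well above the other WT livers and still lay far below every Prox1-cKO liver. Its log2 fold change was 2.32 (SE 0.28, edgeR adjusted p = 0.00113). Of the 50-base stretches of its transcripts, 14.5% also occur in transcripts of other genes, mostly the neighbouring pseudogene Rdh18-ps, whose exons share 381 bp with it. Rdh18-ps had 4 to 14 reads per library, against 721 to 3973 for Rdh16.

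Dhrs3, which encodes the enzyme that reduces retinal back to retinol (ENSMUSG00000066026, chromosome 4, 144892827 to 144928209), moved the other way. It was 112, 137 and 182 CPM in WT and 93.0, 91.9 and 101 CPM in Prox1-cKO. The WT livers were spread over a wide range, the lowest of them close to the highest Prox1-cKO liver. The log2 fold change was −0.59 (SE 0.19, edgeR adjusted p = 0.0403). This call did not hold when a library was left out, with adjusted p = 0.0788 without WT replicate 2, 0.0665 without WT replicate 3 and 0.115, 0.135 and 0.0819 without Prox1-cKO replicates 1, 2 and 3. It held without WT replicate 1.

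Aldh1a1, which encodes the main retinal dehydrogenase of adult liver (ENSMUSG00000053279, chromosome 19, 20492715 to 20643465), was 1323, 828 and 1202 CPM in WT and 1521, 1336 and 1971 CPM in Prox1-cKO. WT replicate 1 and Prox1-cKO replicate 2 were almost level. The log2 fold change was 0.53 (SE 0.25, edgeR adjusted p = 0.134), or 0.12 with library totals alone, and was not called in either. Its close paralog Aldh1a7, which is active on aldehydes but little on retinal, was 447, 254 and 342 CPM in WT and 235, 180 and 191 CPM in Prox1-cKO. Aldh1a7 had a log2 fold change of −0.78 (edgeR adjusted p = 0.0306), which missed the threshold without WT replicate 1 or Prox1-cKO replicate 2 or 3 (adjusted p = 0.0937, 0.119 and 0.093). Per kb, Aldh1a1 was 1.24 to 1.47 times Aldh1a7 in WT and 2.71 to 4.31 times in Prox1-cKO (exact permutation p = 0.1). Of the 50-base stretches of Aldh1a1, 3.06% also occur in other genes, most often Aldh1a7.

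Aldh1a2, which encodes the retinal dehydrogenase of embryos and of mesothelial and stromal cells (ENSMUSG00000013584, chromosome 9, 71215789 to 71296243), was close to the limit of detection. It had 17, 6 and 7 reads in the WT libraries and 1, 1 and 1 in the Prox1-cKO libraries. Relative to the adjusted library totals this is a ratio of 7.75 in favour of WT, with a 95% interval of 2.41 to 39.7 that covers counting error only. With no filter beyond 1 read the adjusted p was 0.0156 from edgeR, and DESeq2 gave 0.0422. Markers of the mesothelium were as scarce: their summed level was 2.31 to 3.91 CPM in WT and 1.18 to 2.89 CPM in Prox1-cKO, and 7 of the 8 did not pass the filter.

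Cyp26a1, which encodes the hydroxylase that clears retinoic acid and responds to it (ENSMUSG00000024987, chromosome 19, 37697798 to 37701536), had the largest fall of the members. It was 39.6, 35.1 and 52.5 CPM in WT and 3.18, 3.05 and 1.65 CPM in Prox1-cKO. The lowest WT liver thus lay far above the highest Prox1-cKO liver. The means were 42.4 ± 9.02 and 2.63 ± 0.847 CPM (SD, n = 3), a log2 fold change of −4.01 (SE 0.27, edgeR adjusted p = 9.02e-05). Of all genes tested, 222 (1.5%) were called with a fall at least as large.

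Of the other CYP26 hydroxylases, Cyp26c1 fell as well and Cyp26b1 rose. Cyp26b1, which clears retinoic acid in many tissues other than liver, was 14.4, 15.8 and 10.8 CPM in WT and 31.5, 30.8 and 18.7 CPM in Prox1-cKO, and its log2 fold change was 0.98 (edgeR adjusted p = 0.0146). Cyp26b1 was not called with library totals alone (0.56, adjusted p = 0.0941), nor without Prox1-cKO replicate 2 (0.0554). Cyp26c1 was 2.47, 3.91 and 2.13 CPM in WT and 0.624, 0.0545 and 0.295 CPM in Prox1-cKO, and its log2 fold change was −3.14 (edgeR adjusted p = 0.00562), or −3.99 without Prox1-cKO replicate 1.

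Which CYP26 mRNA was the most abundant therefore differed between the genotypes. Per kb, Cyp26a1 made up 82.9%, 77.3% and 89.1% of the reads of the 3 genes in WT and 20.4%, 21% and 18.5% in Prox1-cKO (exact permutation p = 0.1). Cyp26b1 was the larger of the pair in each Prox1-cKO liver and the smaller in each WT liver. The sum of the 3 genes was 24.1, 22.9 and 29.7 CPM per kb in WT and 7.85, 7.32 and 4.50 CPM per kb in Prox1-cKO, so the rise of Cyp26b1 was smaller than the fall of Cyp26a1 (exact permutation p = 0.1).

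Rarb, which encodes retinoic acid receptor beta (ENSMUSG00000017491, chromosome 14, 16430839 to 16819156), was 4.98, 3.99 and 3.45 CPM in WT and 1.12, 0.763 and 0.945 CPM in Prox1-cKO. In reads these are 113, 95 and 68 against 18, 14 and 16, with no overlap. Its log2 fold change was −2.13 (SE 0.27, edgeR adjusted p = 0.00135), or −1.40 with limma on the log2 of CPM plus 1, a scale that understates the change of low genes. Of its exon bases, 34.1% overlap Top2b on the other strand, and whether the counting used strand is not known. Top2b was 49.1, 55.4 and 62.2 CPM in WT and 64.4, 60.4 and 52.0 CPM in Prox1-cKO, with a log2 fold change of 0.08 (edgeR adjusted p = 0.664).

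The related receptors Rara and Rarg were not called. Rara, the receptor alpha, was 18.9, 21.5 and 23.3 CPM in WT and 19.7, 20.9 and 22.3 CPM in Prox1-cKO, and its log2 fold change was −0.02 (edgeR adjusted p = 0.923). With library totals alone it was −0.42, close to the shift of all genes on that scale, and was called (adjusted p = 0.0285). Rarg, the receptor gamma, had a log2 fold change of −0.67 (edgeR adjusted p = 0.0856), and was called in 2 settings, library totals alone (−1.07, adjusted p = 0.0145) and without Prox1-cKO replicate 2 (0.0415). Per kb, Rarb was 0.218, 0.154 and 0.123 times Rara in WT and 0.0472, 0.0303 and 0.0352 times Rara in Prox1-cKO (exact permutation p = 0.1). Rxra, the partner receptor most abundant in liver, was 293, 283 and 352 CPM in WT and 469, 509 and 553 CPM in Prox1-cKO, and its log2 fold change was 0.72 (edgeR adjusted p = 0.0119). Rxra was not called with library totals alone (0.32, adjusted p = 0.114) or without WT replicate 2 (0.0513).

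**Figure D3:**
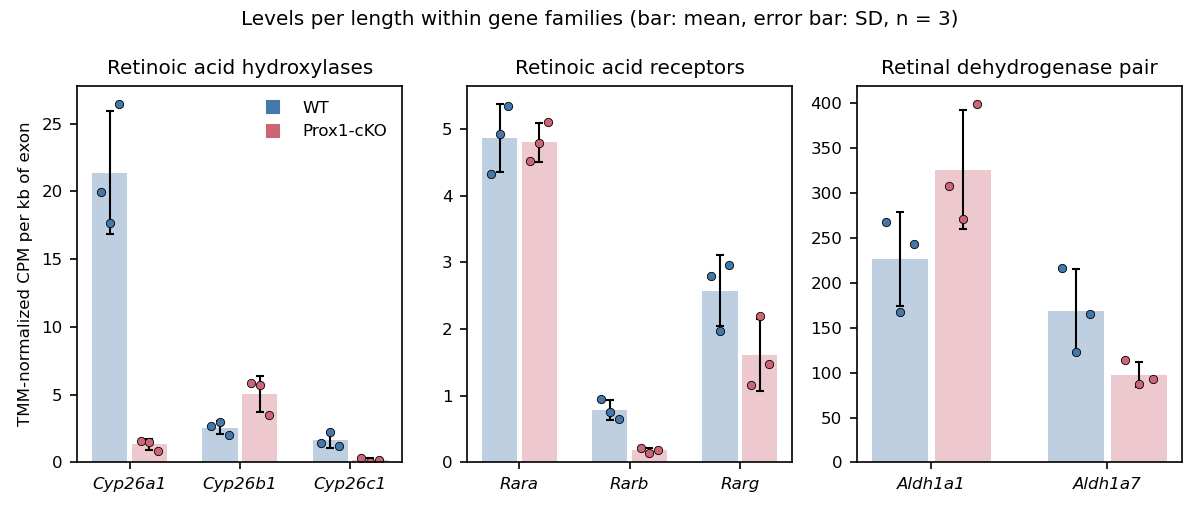
TMM-normalized CPM per kb of exon (linear axes from 0) of the CYP26 hydroxylases, the retinoic acid receptors and the pair Aldh1a1 and Aldh1a7 in WT (blue) and Prox1-cKO (red). Bars are means, error bars SDs and points the 3 livers. Cyp26a1 is above Cyp26b1 in WT and below it in Prox1-cKO, Rarb is the lowest receptor in both, and Aldh1a1 and Aldh1a7 are further apart in Prox1-cKO.

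The order of the members by level per kb of exon differed between the genotypes at Cyp26a1 and Rdh16. In WT it ran from Ttr and Rbp4, which overlapped (1030 to 1270 and 834 to 1350 CPM per kb), through Aldh1a1 (168 to 268), Dhrs3 (38.4 to 62.3) and Cyp26a1 (17.7 to 26.5). Below these came Rdh16 and Lrat, which overlapped (4.87 to 9.58 and 5.18 to 6.55 CPM per kb), then Rarb (0.655 to 0.945) and Aldh1a2 (0.111 to 0.331). In Prox1-cKO, Rbp4 and Ttr again led and overlapped (3100 to 3840 and 2620 to 3110 CPM per kb), followed by Aldh1a1 (271 to 399). Rdh16 (26.9 to 37.8 CPM per kb) had come level with Dhrs3 (31.4 to 34.5), and Cyp26a1 (0.834 to 1.60) lay below Lrat (2.97 to 3.38). Rarb and Aldh1a2 remained the lowest.

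The genes whose pattern over the 6 libraries was most like that of each member were ranked by the root mean square difference of centred log2 CPM, over 10132 or 10133 candidates with a mean of at least 5 CPM. For Rbp4 these were Ephx2, an epoxide hydrolase (0.08), Slc10a1, the bile acid uptake carrier of hepatocytes (0.08), and Ccnf (0.11). For Ttr they were Arrdc2 (0.06), Slc45a3 (0.08) and Abhd3 (0.09), and for Lrat they were Mpzl1, Myo6 and Dtx3 (0.06 to 0.08). For Rdh16 the nearest were the paraoxonase gene Pon1, Gm4737 and the cytochrome P450 gene Cyp2e1 (0.15 each). For Dhrs3 they were Tecpr1, Plekhg5 and Hps4 (0.09 each), and for Aldh1a1 they were Spp2 (0.10), Ubap1 (0.12) and Ttc23 (0.14). The most distant neighbours were those of Cyp26a1, namely Lrrc8b (0.19), Npl (0.27) and Greb1l (0.29), and Rarb was closest to Olfml1 (0.09), 2200002D01Rik and Slc7a7 (0.17 each). Cyp26a1 also varied the most itself, with an SD of 2.23 on this scale against 0.384 to 1.35 for the other members, and the distances were not scaled for this. Since such a ranking over 6 libraries is mostly set by the difference between the genotypes, it says nothing of shared function.

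A wider list of 64 retinoid genes by role places the members among their pathway. Of these, 59 were in the table, 50 were tested, 14 were higher and 16 lower, against 14.1% and 20.2% of all genes. The median log2 fold change was −0.05, close to the −0.02 of all genes, with values from −4.97 to 2.23. The list thus did not lean one way by its median, and 30 of its 50 tested genes were called in 1 or the other direction, against 34.3% of all genes. Members and list were chosen with earlier results of these data known, so their shares called are not independent of the values.

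**Figure D4:**
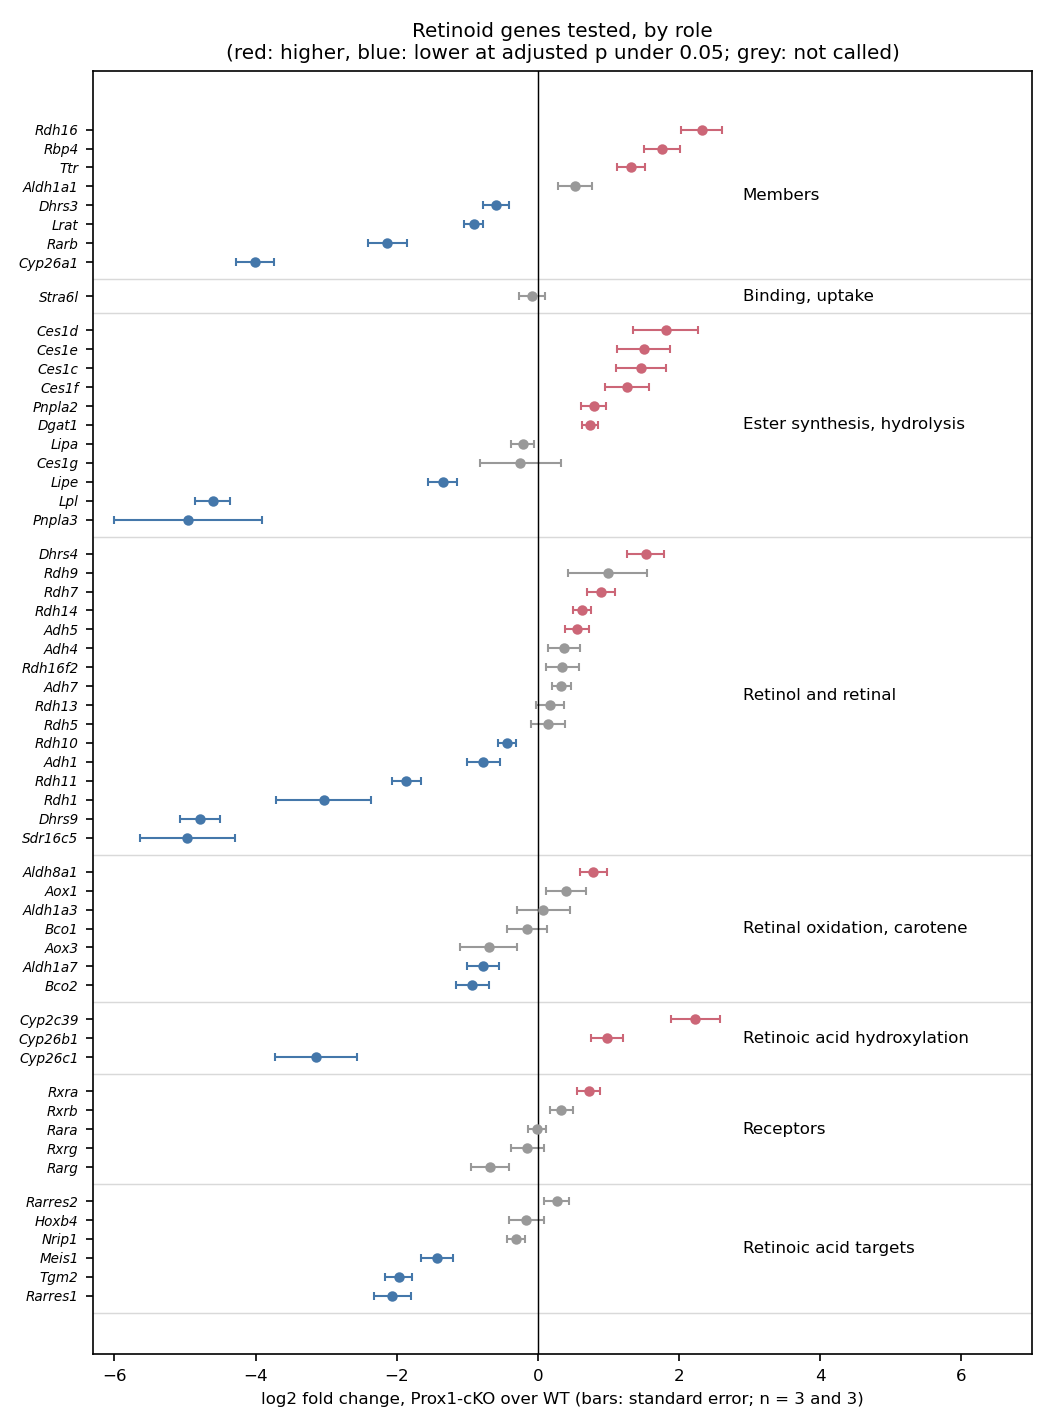
Log2 fold change, Prox1-cKO over WT, of the 8 members tested and of wider retinoid genes named or counted here, grouped by role and ordered within each role (points, with standard errors as bars, n = 3 and 3). Red and blue mark genes called higher and lower and grey those not called. Falls reach −4.97 (Sdr16c5) and rises 2.32 (Rdh16). Of the 6 genes tested in the role of retinoic acid targets, 3 were called lower, none higher and 3 were not called. Over all genes 20.2% were lower and 14.1% higher, and 6 genes are too few to set the absence of rises apart from that.

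Of 11 genes that make or hydrolyse esters of retinol and other lipids, 6 were higher and 3 lower. Over all genes tested these shares were 14.1% and 20.2%. Lpl, the lipoprotein lipase that also frees retinol from chylomicron esters, was 439, 523 and 681 CPM in WT and 27.6, 20.6 and 19.3 CPM in Prox1-cKO (log2 fold change −4.61). Pnpla3, known in human stellate cells as a retinyl-palmitate lipase, was 13.96, 3.45 and 1.22 CPM in WT and 0.2495, 0.273 and 0.0591 CPM in Prox1-cKO (−4.95, or −2.15 with limma on CPM plus 1 and −3.54 when WT replicate 1 was left out). Lipe, the hormone-sensitive lipase, whose exons share 918 bp with another gene, also fell (log2 fold change −1.35). The carboxylesterase genes Ces1d, Ces1e and Ces1c rose, with log2 fold changes of 1.81, 1.499 and 1.46. These esterases varied widely in WT, since Ces1d was 174, 95.3 and 382 CPM there and 730, 633 and 924 CPM in Prox1-cKO. Without WT replicate 3 the log2 fold change of Ces1d was 2.52 and that of Ces1e 2.17. The call of Ces1d was lost without WT replicate 1 or Prox1-cKO replicate 3 (adjusted p = 0.0595 and 0.0611). That of Ces1e was lost without WT replicate 1 or 2 or Prox1-cKO replicate 2 or 3 (adjusted p = 0.0503, 0.054, 0.051 and 0.0537).

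Of 16 genes that interconvert retinol and retinal, 4 were higher and 6 lower, against 14.1% and 20.2% of all genes tested. Rdh16 and Dhrs3 thus had company in both directions. Dhrs9, a retinol dehydrogenase, was 17.2, 19.8 and 24.6 CPM in WT and 0.437, 0.763 and 1.004 CPM in Prox1-cKO, and its log2 fold change was −4.78 (−3.63 with limma on CPM plus 1). Sdr16c5 (RDHE2), which oxidizes retinol in skin, had 131 reads in WT and 3 in Prox1-cKO, a ratio of 33.8 in favour of WT (95% counting interval 11.3 to 166). Rdh1 had 65 and 6 reads, a ratio of 8.39 (3.66 to 23.7), and its call was lost without Prox1-cKO replicate 2 (adjusted p = 0.0517). On the log2 scale the fitted changes of Sdr16c5 and Rdh1 were −4.97 and −3.03, with −5.84 for Sdr16c5 when Prox1-cKO replicate 3 was left out and −2.38 for Rdh1 when WT replicate 3 was. With limma on CPM plus 1 they were −1.48 and −0.81, and that of Cyp26c1 was −1.53. Rdh11, a retinal reductase, fell by 1.86 on the log2 scale.

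The rises in this role were smaller than that of Rdh16. Dhrs4, which reduces retinal, had a log2 fold change of 1.53, and Rdh7, a neighbour of Rdh16 in the same cluster of chromosome 10, had one of 0.90 from 678 ± 138 to 1263 ± 73.0 CPM (SD, n = 3). The paralog Rdh16f2 was not called (0.35, adjusted p = 0.282, or −0.08 with library totals alone). Rdh9, of whose 50-base stretches 68.3% also occur in other genes, most often Rdh16f1, was not called either (0.99, adjusted p = 0.205), but was without WT replicate 3 (1.91, adjusted p = 0.00724). Rdh10, the retinol dehydrogenase essential in mouse embryos, was 32.9, 26.6 and 26.2 CPM in WT and 21.6, 20.6 and 20.97 CPM in Prox1-cKO. Its log2 fold change of −0.44 (adjusted p = 0.0311) lost its call in 5 of the 6 leave-outs, all but that of WT replicate 3 (adjusted p = 0.0535 to 0.117), and with no filter beyond 1 read (0.057).

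Of 7 genes of retinal oxidation and carotene cleavage, Aldh8a1 was higher (log2 fold change 0.79) and Aldh1a7 and Bco2, a carotenoid oxygenase, were lower (−0.78 and −0.93). Over all genes tested 14.1% were higher and 20.2% lower. Aldh8a1 was not called with library totals alone (0.38, adjusted p = 0.0858), nor without WT replicate 1 or 2 or Prox1-cKO replicate 1 (0.0566, 0.06 and 0.0533). That of Bco2 was lost without Prox1-cKO replicate 2 or 3 (adjusted p = 0.0678 and 0.0629). Aldh1a3, the third retinal dehydrogenase of the family, was near 1 CPM or below in every library and was not called (0.08, adjusted p = 0.891). In the role of retinoic acid hydroxylation, besides Cyp26b1 and Cyp26c1, Cyp2c39 rose by 2.23 on the log2 scale, from 2.25, 0.967 and 2.33 CPM to 9.73, 6.49 and 9.75 CPM. Stra6l, a retinol transporter of the liver (RBPR2), was not called (−0.08, adjusted p = 0.756) but was with library totals alone (−0.49, adjusted p = 0.0347).

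Of 6 genes tested in the role of retinoic acid targets outside the members, 3 were called lower, none higher and 3 were not called. Over all genes tested 20.2% were lower and 14.1% higher, and 6 genes are too few to set the absence of rises apart from that. Their log2 fold changes ran from −2.06 to 0.26, so the role did not fall as a whole. It does not count the 3 hydroxylases outside the members, of which Cyp26b1 and Cyp2c39 were higher and Cyp26c1 lower. Tgm2, the tissue transglutaminase, was 276, 232 and 269 CPM in WT and 53.1, 61.0 and 83.6 CPM in Prox1-cKO (log2 fold change −1.97, SE 0.20). Rarres1, named after its response to a retinoid in human skin, was 232, 269 and 389 CPM in WT and 56.6, 62.4 and 94.3 CPM in Prox1-cKO (−2.06, SE 0.27). Meis1, a homeobox gene, fell by 1.43 on the log2 scale, at 7.16 to 10.6 CPM in WT and 2.66 to 3.81 CPM in Prox1-cKO. Tgm2, Rarres1 and Meis1 were each apart between the genotypes, as were 49.9% of all genes. Tgm2 and Rarres1 are also expressed outside hepatocytes, so markers of other liver cells are given beside them. The summed level of cholangiocyte markers was 150 to 210 CPM in WT and 50.3 to 74.5 CPM in Prox1-cKO, and 4 of 6 tested fell. That of macrophage markers was 533 to 1350 and 468 to 653 CPM, with 8 of 10 lower, and that of endothelial markers 508 to 651 and 402 to 626 CPM, with 2 of 9 lower. Over all genes tested 20.2% were lower. None of these markers was called higher, though those of the endothelium ran from −0.75 to 0.61 in log2 fold change. The markers of macrophages and endothelium were above 0 in every library. Their part in the falls was not tested. The exons of Tgm2 and Meis1 share 1003 and 1925 bp with other genes, so their reads may include some of these.

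**Figure D5:**
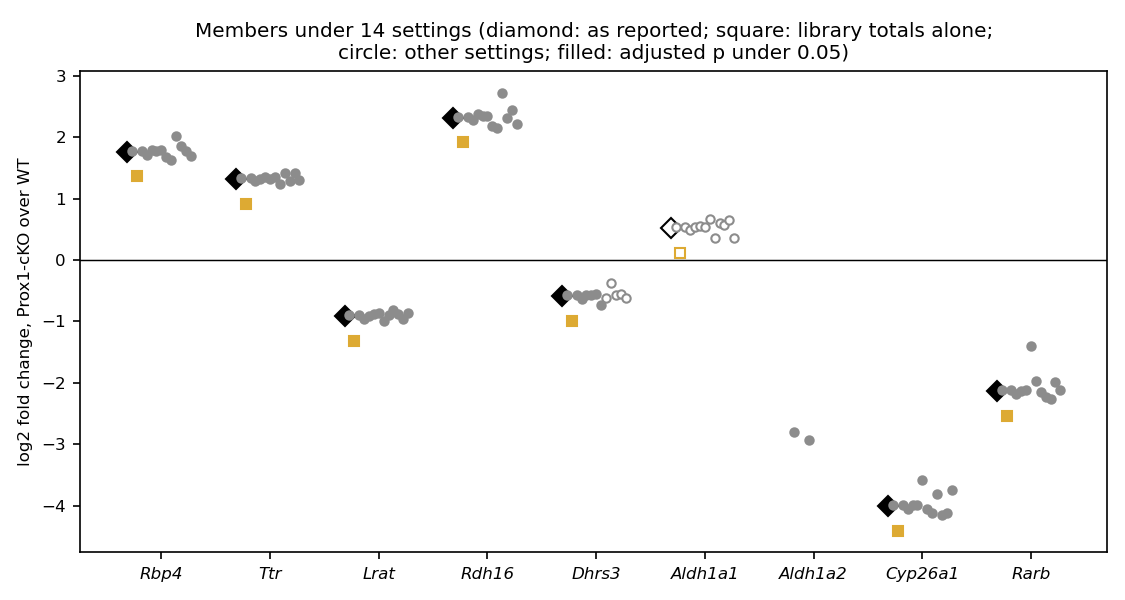
Log2 fold change, Prox1-cKO over WT, of each member under 14 settings (black diamond, as reported; yellow square, library totals alone; grey circles, the other settings; filled, adjusted p under 0.05). The direction of each tested member is the same throughout, open circles for Dhrs3 mark the leave-outs in which its call was lost, and Aldh1a2 appears only in the settings whose filter kept it.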

How the data were processed

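Liver mRNA of 3 WT mice was compared with that of 3 Prox1-cKO mice, 1 library each. The study describes n as biological replicates, whose spread the p-values measure. The authors deposited counts of reads per gene, and their processing notes list HISAT2 2.1.0 as aligner and HTSeq as counter. The notes also name DESeq and the human build GRCh38, while the identifiers are mouse genes (29605 of 29667 are in GENCODE M21). The sources used here give neither strand nor annotation release. A second deposited table, named FPKM, was not used. It holds the same counts scaled to 1000000 per library.

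The fit used edgeR 4.0.16 under R 4.3.3 (filterByExpr, TMM, quasi-likelihood test, genotype as the only term, Benjamini-Hochberg over 14843 genes). The tests were checked on simulated data. As alternatives, DESeq2 1.42.0, limma-trend (limma 3.58.1, log2 of CPM plus 1), library totals alone, RLE scaling, a block for the replicate number, a filter of 1 read in all or of 10 reads per library, and an added threshold of 2-fold were run, and libraries were left out one by one. Ratios within a library and summed markers had exact permutation tests in Python 3.11.15. Levels per kb used the exon length of GENCODE M21. Sequences came from RefSeq (GRCm38.p6).

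The members and lists were chosen with earlier results of these data known. Named were all members, up to 6 called genes per role with the largest change, paralogs or partners of members, up to 3 genes most like each member, and Prox1. Alb, Dcn, Ecm1, Vipr1, Pdgfrb, Ngfr, Tagln, Timp1, Bco1, Top2b and Rdh18-ps were named after their values were seen. Some listed genes count in their lists and are not reported by name here.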

Additional observations from a re-analysis of the deposited data

How the results depend on the processing

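Each of the 8 members tested kept its direction under all 13 alternatives that gave a fold change, and 99 of the 104 values kept their side of the threshold. The others were the calls of Dhrs3 lost with 1 library left out. Members called were 3 higher and 4 lower, and 3 and 3 to 4 with each library left out. With a fold of at least 2 as well, 2 members were lower. Over all genes, 2087 were higher and 2999 lower, with 730 and 6051 by library totals alone, 735 higher with the fold, and 1201 to 2602 higher and 1998 to 3469 lower with each library left out (fewest without Prox1-cKO replicate 2). The wider list had 14 higher and 16 lower, with 8 higher by library totals alone, 6 with the fold, and 9 to 17 higher and 12 to 15 lower with each library left out (9 without WT replicate 1 or 2). Signs changed for uncalled genes near 0. Stra6l ran from −0.19 to 0.11 with each library left out, Aldh1a3 from −0.14 to 0.37 and Rara from −0.093 to 0.072. With library totals Rdh16f2 was −0.078 and Aldh1a3 −0.32, and with DESeq2 Rara was 0.0043. Other than by scaling, the cause was not tested. Whether the replicate numbers pair the libraries was not settled. The deviations of same-numbered livers correlated at 0.141, 0.052 and 0.15, and those of differently numbered livers at −0.153 to 0.0582. The highest of the latter was WT replicate 2 with Prox1-cKO replicate 1. With the replicate block, 2029 genes were higher and 2988 lower, with 3 and 4 of the members and 14 and 16 of the wider list. Depth limits Aldh1a2 and the markers of the mesothelium, which had few reads.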
